A study of Mus musculus with 28 samples.

Results

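Foxp1 and Foxp4 are 2 of 21883 protein-coding genes of the mouse annotation, and both encode forkhead proteins of the P subfamily. Their events were defined as all binding events inside the gene or within 50 kb of either end, in each of 14 lists of events. Of 162571 events in these lists, 227 met that rule, 173 at Foxp1 and 54 at Foxp4. The genes were chosen by the number of events near them and by the coincidence of Forkhead factors there, as measured in these same lists. The numbers of events and of shared sites are therefore a description, given with no test, beside the same measure over all genes or over the whole list.

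The events come from ChIP-exo, in which lambda exonuclease trims the immunoprecipitated DNA back to the crosslinked protein. All cells were MC1 mouse embryonic stem (ES) cells of the 129S6/SvEvTac genotype, and each factor line carried a His6-FLAG-tagged factor at Rosa26 that doxycycline (Dox) keeps silent. Washing Dox out induced the factor, and the cells stayed in differentiation medium until they were crosslinked. Each of 4 factor lines had 1 combined list from cells taken 24 h after Dox removal. The FoxC1, FoxL2 and FoxP3 lists each stand for 2 anti-FLAG libraries, and the FoxA1 list for 2 anti-FLAG libraries plus 1 made with an antibody to FoxA1 itself. A time course of the FoxA1 line covered 0, 6, 12, 24 and 48 h. It used both antibodies, and every time and antibody had a single library and list. An empty control line, MC1(null), at 0 h had 2 libraries and no list used here. Each factor was expressed from a transgene in 1 kind of cell line, and expression was not measured, so neither the level of the factor nor the state of the cells was checked. Each event is 1 bp wide and has a score between 43 and 1000 of unstated scale, so scores are read as percentiles within their own list. The read depth behind the lists is unknown.

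Forkhead proteins bind DNA through a winged-helix domain, most of them at sequences with the core TGTTTA or TGTTTG. The P subfamily comprises FoxP1, FoxP2, FoxP3 and FoxP4, which pair with each other or with themselves through a leucine zipper and act mainly as repressors. FoxP1 has roles in B cells, heart, lung and motor neurons, and ES cells make a splice form of it with a different forkhead domain that is linked to pluripotency genes. FoxP4 works beside FoxP1 in lung and gut epithelium. Among the factors profiled here, FoxP3 belongs to the same subfamily as both genes, FoxA1 is a pioneer factor of endoderm, FoxC1 acts in mesoderm and FoxL2 in the ovary.

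Foxp1 (gene ID 108655) lies on the minus strand of chromosome 6 at 98925342–99522746 on mm10. At 597 kb it is shorter than only 154 protein-coding genes, and the RefSeq promoter table gives it 3 transcription starts, 1.75, 256 and 494 kb from its 5′ end. No other protein-coding gene reaches into its window of 697 kb, which holds the non-coding genes Gm19665, Gm38865, Gm51278, Gm52870 and Gm32882. Foxp4 (gene ID 74123) lies on the minus strand of chromosome 17 at 47867133–47924632. It is 57.5 kb long, and the table gives it 1 start, at its 5′ end. Its window of 157.5 kb takes in the long non-coding gene Gm29938, whose interval starts at 47950119 upstream of Foxp4, and Mdfi, an inhibitor of MyoD family factors, on the other side. The files and the reference used give no exons, so events are placed by the gene interval and the starts alone.

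All 4 factors had events at Foxp1 in the combined lists. FoxA1 had 30 events, 26 of them inside the gene, where 74.2% of all protein-coding genes had at least 1 FoxA1 event in their window. FoxL2 had 18 events, 15 inside the gene (32.3% of genes had any), and no protein-coding gene had more FoxL2 events. Mtus1 came next with 13. FoxP3 had 6 events, all inside (21.6% of genes), and FoxC1 had 2, both inside (7.70% of genes). Of the 155 protein-coding genes at least as long as Foxp1, 96.8% had FoxA1, 78.7% FoxL2, 55.5% FoxP3 and 14.2% FoxC1 events. Events of all 4 factors were found in the windows of 3.51% of all protein-coding genes and of 12.3% of these long genes.

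Per 100 kb, the Foxp1 window held 4.30 FoxA1 events (95% Poisson interval 2.90–6.14) against 1.21 over the chromosomes as a whole. FoxL2 had 2.58 (1.53–4.08) against 0.266, which placed Foxp1 at percentile 98.5 of all protein-coding genes by density. FoxP3 had 0.860 (0.316–1.87) against 0.161 (percentile 88.4), and FoxC1 0.287 (0.0347–1.04) against 0.0406 (percentile 92.7). FoxA1 stood at percentile 89.7. These intervals cover counting error only, and the whole list includes long stretches without genes. Relative to its list, FoxL2 was thus the densest of the 4 at Foxp1, at 9.72 times the rate of the list, compared with 3.55 for FoxA1, 5.34 for FoxP3 and 7.06 for FoxC1, though the counts behind FoxP3 and FoxC1 are small.

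**Figure D1:**
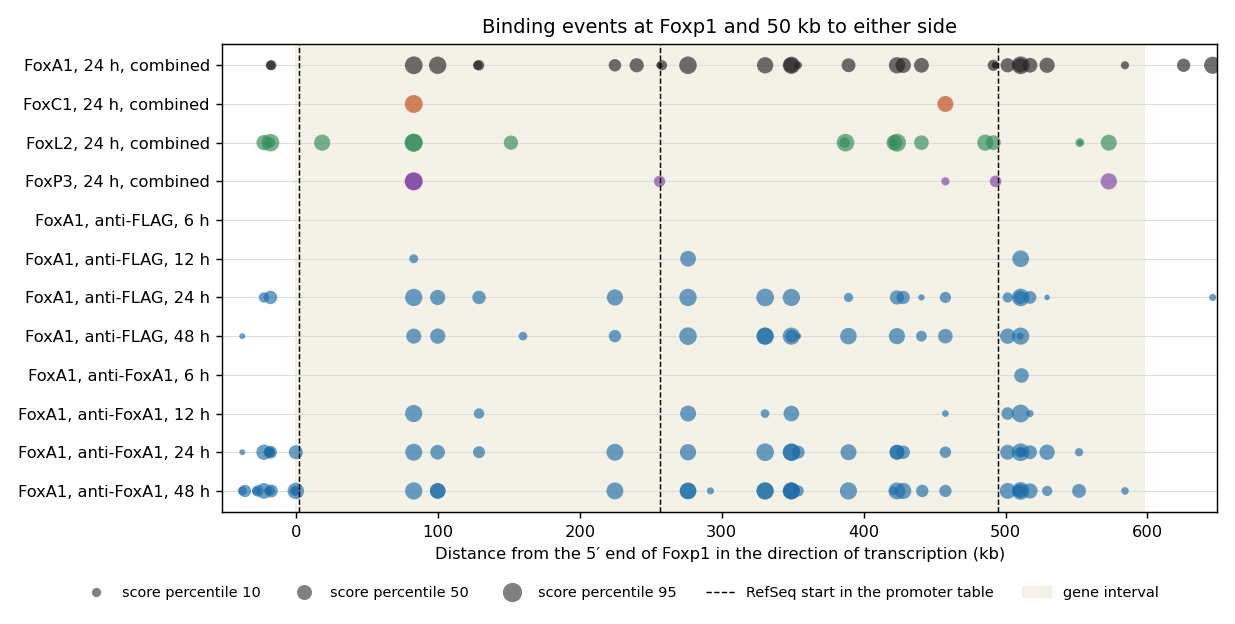
Events at Foxp1 by list. The horizontal axis is the distance from the 5′ end of the gene in kb, each point is 1 event with its size set by the percentile of its score in its list, the shaded band is the gene and the dashed lines are the 3 RefSeq starts. The lists at 0 h had no event here and are left out, and the column of points 82.9 kb into the gene is the site shared by all 4 factors.

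Along Foxp1 the events were counted between its starts. Between the first and the second start, 254 kb, the combined lists had 7 FoxA1, 4 FoxL2, 3 FoxP3 and 1 FoxC1 events. Between the second and the third start, 238 kb, they had 13 FoxA1, 8 FoxL2, 2 FoxP3 and 1 FoxC1 events. FoxA1 density was 2.75 per 100 kb in the first of these stretches and 5.46 in the next, a difference that was not tested. The 103 kb from the third start to the 3′ end held 6 FoxA1, 3 FoxL2 and 1 FoxP3 events. Upstream of the gene, 2 FoxA1 and 3 FoxL2 events lay within 50 kb, compared with 10 in the anti-FoxA1 list at 48 h. The nearest of those 10 lay 280 bp upstream of the gene at 99523026, with a score of 234 (percentile 83.2). It was called at 24 h too, 2 bp away with a score of 104, and by no other list. Inside Gm19665, a non-coding gene within Foxp1, FoxL2 had 3 events and FoxA1 1.

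Joined at 100 bp, the events of the combined lists made 44 sites at Foxp1, of which 10 held 2 or more factors (22.7%, Wilson 95% interval 12.8–37.0), compared with 8.58% of all 40951 sites. AU018091 had as many such sites and only Nlrp12, with 17, had more, genes named after their values were seen. They are 31.1 kb and 14.5 kb long in the order Nlrp12 and AU018091. Such a site was found at 19.1% of all protein-coding genes and at 50.3% of those at least as long as Foxp1, where the median number was 1. The 10 sites were 4 of FoxA1 with FoxL2, 2 of FoxA1 with FoxP3, 2 of FoxL2 with FoxP3, 1 of FoxC1 with FoxP3 and 1 of all 4 factors. FoxA1 with FoxL2 made 9.09% of the 44 sites (3.59–21.2), compared with 2.04% of all sites. FoxA1 with FoxP3 made 4.55% (1.26–15.1), near the 3.41% of all sites. FoxL2 with FoxP3 made 4.55% against 0.606%. FoxC1 with FoxP3, and all 4 factors, made 2.27% each against 0.0708% and 0.313%. All 6 FoxP3 events lay within 100 bp of another factor (61.0–100%), as did 50.5% of the whole FoxP3 list. Both FoxC1 events did too (73.0% of that list), along with 7 of 18 FoxL2 events (24.8%) and 7 of 30 FoxA1 events (9.72%). The interval for FoxP3 treats its events as independent, though those at 99439864 and 99440004 lie 140 bp apart.

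The site of all 4 factors lay between the first and the second start, 82.9 kb from the 5′ end, and held some of the highest scores of each list. Sites of all 4 factors were found in the windows of 1.08% of all protein-coding genes and of 1.94% of the genes at least as long as Foxp1, which were Foxp1, Dpp6 and Sdk1. At this site FoxC1 and FoxP3 shared a base, 99439864, with scores of 853 (percentile 99.6 of the FoxC1 list) and 931 (percentile 99.3). FoxL2 lay 1 bp away at 99439863 with a score of 652 (percentile 99.6), and FoxA1 lay 15 bp away at 99439879 with a score of 1000 (percentile 98.4), the ceiling. FoxL2 and FoxP3 each had another event at 99440004, again at the same base and 140 bp towards the 5′ end, with scores of 895 and 873. Both factors thus had a pair of strong events here, 1 on either side of FoxA1. Of all gaps between neighbouring events, 2.14% for FoxL2 and 2.43% for FoxP3 fell between 101 and 200 bp.

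**Figure D2:**
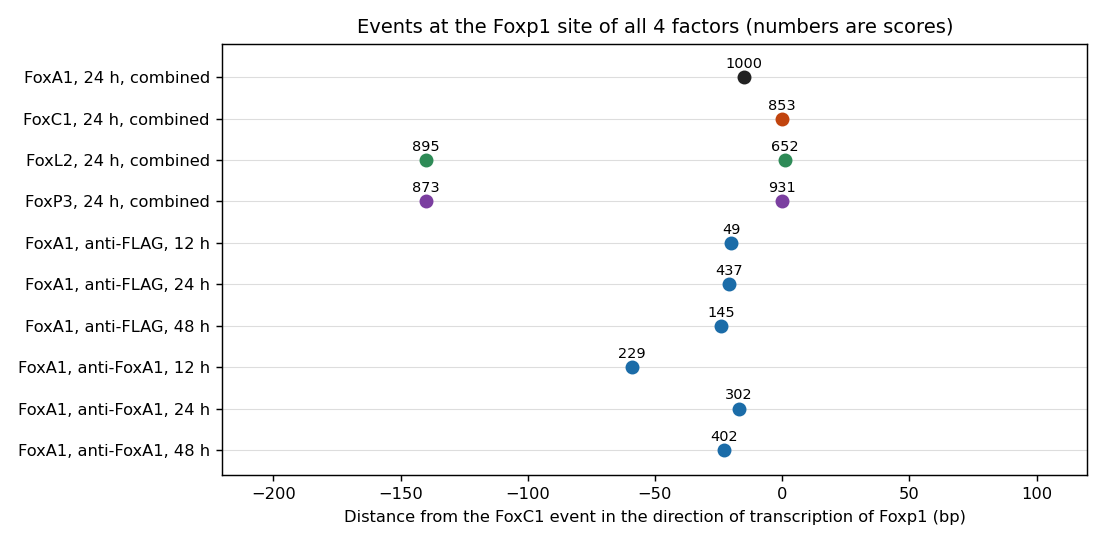
Events around the Foxp1 site of all 4 factors. The horizontal axis is the distance in bp from the FoxC1 event in the direction of transcription, each row is a list and the numbers are scores. The FoxA1 events of the time courses lie 17 to 59 bp from the FoxC1 event, all on the side of the other FoxL2 and FoxP3 events.

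FoxA1 events of the time courses stood at the same site from 12 h on with both antibodies. With anti-FLAG the scores were 49 at 12 h, 437 at 24 h and 145 at 48 h, and with anti-FoxA1 they were 229, 302 and 402. The anti-FLAG event at 12 h was weak within its list (percentile 18.5), while the anti-FoxA1 event at that time was at percentile 91.9. The FoxA1 events were 15 to 24 bp from the FoxC1 base, except at 12 h with anti-FoxA1, where the event lay 59 bp away. All of these FoxA1 events lay between the pair of FoxL2 events. Over the whole lists, FoxL2 events that met a FoxA1 event lay a median of 15.0 bp from it, and 13.2% of them within 1 bp. FoxC1 events that met a FoxL2 event lay a median of 6.00 bp from it, and 41.4% within 1 bp.

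Beside the pair at 99440004, 3 sites of 2 factors had partners within 1 bp of each other, and FoxP3 was 1 of the partners at all of them. At 2 bp this no longer held: partners there were FoxA1 with FoxP3 at 99266590 and FoxA1 with FoxL2 at 99540859. FoxL2 and FoxP3 shared base 98949958, 573 kb from the 5′ end, with scores of 104 (percentile 78.2) and 185 (percentile 81.7), and no FoxA1 list had an event there. FoxC1 and FoxP3 lay at 99065112 and 99065111, with scores of 124 (percentile 77.2) and 49 (percentile 14.0). Only 29 of all sites held FoxC1 and FoxP3 alone. The combined FoxA1 list had no event at that place, but FoxA1 was called at 99065110 to 99065112 in 5 of the 10 time-course lists, from 12 h on with anti-FoxA1 and from 24 h on with anti-FLAG, at scores of 45 to 127. FoxA1 and FoxP3 lay at 99029736 and 99029735, 1.44 kb upstream of the third start, with scores of 48 and 64.

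The sites of FoxA1 with FoxL2 had higher scores for FoxL2 than for FoxA1, as percentiles, in 3 of 4 cases. At 99099179, inside Gm19665, FoxL2 had its highest score at Foxp1, 922 (percentile 99.8), and FoxA1 lay 45 bp away with 295 (percentile 81.5). At 99540859, 18.1 kb upstream of the gene, FoxL2 had 277 (percentile 96.3) and FoxA1, 2 bp away, had 63 (percentile 21.3). At 99031316 both had a score of 75, percentile 65.6 for FoxL2 and 33.6 for FoxA1, at a distance of 74 bp, the widest gap counted as shared here. The exception was 99082009, with 74 for FoxL2 (percentile 64.1) and 160 for FoxA1 (percentile 65.6) 8 bp apart. FoxL2 stood alone at 11 of the 44 sites (25.0%), compared with 13.2% of all sites. These 11 had scores of 43 to 304. The strongest of these, at 99135498, 387 kb from the 5′ end, was at percentile 97.0, and no FoxA1 list had an event there. At 99545379, 22.6 kb upstream of the gene, FoxL2 had a score of 86 (percentile 71.5). FoxA1 was called within 100 bp of it in the courses, at 24 and 48 h with anti-FoxA1 (scores of 151 and 171) and at 24 h with anti-FLAG (62). In the combined lists, the narrowest gap not counted as shared was that of 125 bp between FoxA1 at 99439879 and the events at 99440004. Of the courses, anti-FoxA1 at 12 h had an event within 100 bp of 99440004, at 99439923 with a score of 229.

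A further site of FoxP3 with FoxA1 lay in the promoter of the second Foxp1 start. The 250 bases before each of the 3 starts are shown 5′ to 3′ on the strand of the gene, from RefSeq on GRCm38.p6 (the assembly of mm10), to show where these events fall, with matches to TGTTTA or TGTTTG on either strand in capitals. They lie at chr6:99520994-99521243, chr6:99266516-99266765 and chr6:99028299-99028548.
Foxp1, the first start: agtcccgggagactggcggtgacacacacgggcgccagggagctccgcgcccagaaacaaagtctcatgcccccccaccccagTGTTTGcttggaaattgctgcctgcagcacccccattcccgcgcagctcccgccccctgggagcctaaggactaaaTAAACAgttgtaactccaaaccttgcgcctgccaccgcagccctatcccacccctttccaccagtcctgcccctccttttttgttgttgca
Foxp1, the second start: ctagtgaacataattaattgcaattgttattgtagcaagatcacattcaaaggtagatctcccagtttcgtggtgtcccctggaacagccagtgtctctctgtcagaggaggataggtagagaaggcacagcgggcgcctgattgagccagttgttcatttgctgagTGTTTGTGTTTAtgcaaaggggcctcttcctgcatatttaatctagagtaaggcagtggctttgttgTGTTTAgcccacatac
Foxp1, the third start: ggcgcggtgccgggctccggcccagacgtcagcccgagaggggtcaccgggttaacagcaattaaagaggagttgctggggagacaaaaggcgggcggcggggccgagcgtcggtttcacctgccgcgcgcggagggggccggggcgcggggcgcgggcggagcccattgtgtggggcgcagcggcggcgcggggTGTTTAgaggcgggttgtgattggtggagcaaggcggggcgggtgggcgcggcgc

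In the promoter of the second start the FoxA1 event (99266592, score 48) and the FoxP3 event (99266590, score 63) lay 77 and 75 bp before it. Both fell inside the run TGTTTGTGTTTA, a TGTTTG followed directly by a TGTTTA, which covers bases 168 to 179 of the window. The run was picked after the sequence was seen, and 2 of 32851 promoter windows of this length hold it on either strand. At least 1 of the 6-base cores was found in 25.3% of these windows, TGTTTA in 12.0% and TGTTTG in 16.0%. At least 1 core was found in 23 of the 26 windows with both a FoxA1 and a FoxP3 event (88.5%). These 26 made up 0.0791% of all windows. Windows with a FoxA1 event were 1.22% of all and those with a FoxP3 event 0.134%. Of these, 67.25% with FoxA1 and 72.7% with FoxP3 held a core. The first start has a TGTTTG and a TAAACA, the other strand of TGTTTA, in its window, the third start has a TGTTTA, and no list had an event in either window. The 250 bases before the Foxp4 start hold neither core and no event. Many windows belong to alternative starts of the same gene and overlap, and a match is not evidence of binding.

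Both events at the second start had low scores, percentile 6.10 of the FoxA1 list and 34.6 of the FoxP3 list, and neither antibody gave a FoxA1 event there at any time of the courses. The same held for the FoxA1 and FoxP3 events upstream of the third start. In all, 22 of the 30 combined FoxA1 events at Foxp1 had an event of some time-course list within 100 bp (73.3%, 55.6–85.8), compared with 67.9% of the whole list. The 8 without one had scores of 46 to 135 and a median percentile of 23.5, and the 22 others had a median percentile of 66.8. Over the whole list these medians were 32.0 and 60.8.

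The 5 lists of 24 and 48 h (combined, and each antibody at both times) made 51 places at Foxp1, and 11 of them were in all 5 lists (21.6%), compared with 11.8% of all FoxA1 places. Beside the site of all 4 factors, the place with the highest combined score among these 11 lay at 99012045, 511 kb from the 5′ end, beyond the third start. Its scores were 1000 in the combined list, 656 and 394 with anti-FLAG at 24 and 48 h, and 863 and 734 with anti-FoxA1. Their percentiles ran from 91.3 to 98.6. The place 276 kb from the 5′ end had 941 in the combined list, 524 and 646 with anti-FLAG, and 205 and 288 with anti-FoxA1, so its rank was higher with anti-FLAG (percentiles 94.4 and 96.3) than with anti-FoxA1 (80.6 and 87.6). A high combined score did not always go with a high score in the courses. The event at 98876719, downstream of the gene, had a combined score of 560 (percentile 91.6), and of the 10 time-course lists only anti-FLAG at 24 h had an event there, with a score of 48 (percentile 8.4). The place 331 kb from the 5′ end had 298 in the combined list and 793 with anti-FLAG at 24 h, percentiles 81.7 and 97.3.

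The first FoxA1 event called at Foxp1 in the courses was that beyond the third start. Neither 0 h list had an event in the window, where 0 and 0.0731% of all protein-coding genes had any with anti-FLAG and anti-FoxA1. Anti-FLAG at 6 h had none either (0.0548% of genes). With anti-FoxA1 at 6 h the list had 1 event, at 99012043 with a score of 73 (percentile 63.4), where 0.626% of all protein-coding genes had any event at that time. Its scores at the later times were 556, 863 and 734 with anti-FoxA1 and 191, 656 and 394 with anti-FLAG. With anti-FoxA1 the window had 9 events at 12 h (37.8% of genes had any), 28 at 24 h (74.3%) and 38 at 48 h (77.4%). The anti-FLAG lists had 3 at 12 h (10.5%), 20 at 24 h (52.8%) and 18 at 48 h (50.3%), and no protein-coding gene had more anti-FLAG events at 24 h or 48 h. These ranks make no allowance for gene length. By density, Foxp1 stood at percentiles 93.2 and 93.5 of all protein-coding genes with anti-FLAG at 24 and 48 h. With anti-FoxA1, 12 protein-coding genes had more events than Foxp1 at 24 h and 4 had more at 48 h.

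Events of each course were joined at 100 bp into places, and each place was dated by its first list. With anti-FoxA1, Foxp1 had 42 places. The list of 6 h added 1 of them and that of 12 h 8. At 24 h, 19 were added (45.2%, against 52.7% of all places), and at 48 h 14 (33.3%, against 31.3%). Places called by 12 h were thus 21.4% of those at Foxp1 and 16.0% of all places of the course. Of these 9, 8 were called at both 24 and 48 h (82.8% over all places), and the other, at 99393882 with a score of 55, was called at 24 h and not at 48 h. With anti-FLAG there were 24 places, 3 first called at 12 h, 17 at 24 h and 4 at 48 h. Places called by 12 h were 12.5% of them and 8.26% of all. Those first called at 24 and 48 h were 70.8% and 16.7%, compared with 71.4% and 20.3% of all. The 3 early anti-FLAG places, 82.9, 276 and 511 kb from the 5′ end, were called at all later times (88.0% over all places) and were also among the early anti-FoxA1 places. The 4 places first called at 48 h with anti-FLAG had scores of 47 to 87, at percentiles of 3.3 to 46.6 of their list.

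**Figure D3:**
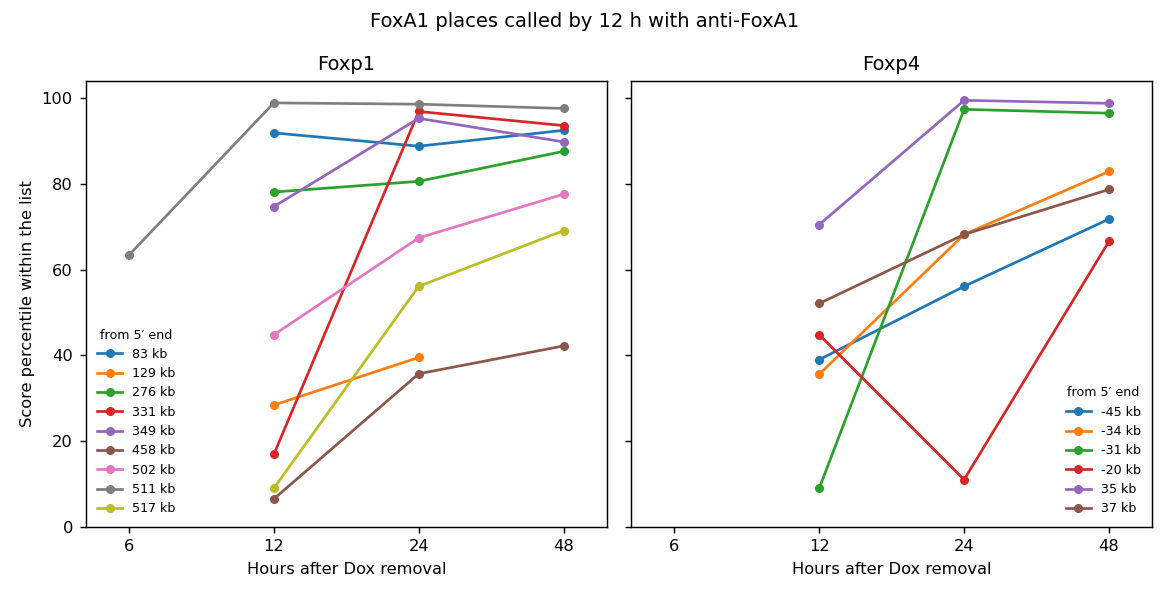
Places called by 12 h with anti-FoxA1 at each gene. The horizontal axis is hours after Dox removal, the vertical axis is the percentile of the highest score of the place within the list of that time, and each line is 1 place, named by its distance from the 5′ end (negative values are upstream). At Foxp1 the place at 511 kb starts at 6 h and lies between percentiles 97.6 and 98.9 from 12 h on, and at Foxp4 the place 34.8 kb inside the gene reaches percentiles 99.5 and 98.8 at 24 and 48 h.

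At Foxp4 the combined lists had 6 FoxA1 events (74.2% of genes had any), 1 FoxC1 event (7.70%) and no FoxL2 or FoxP3 event in its window. Only 32.3% and 21.6% of genes had FoxL2 and FoxP3 events, so most genes had none of either. Relative to its list the FoxA1 density was 3.15 times the rate of the list (percentile 86.3 of genes) and that of FoxC1 15.6 times (percentile 94.4), the latter from 1 event. The strongest FoxA1 event, at 47889877, lay inside the gene 34.8 kb from its start, with a score of 1000. The same place had 106, 1000 and 997 with anti-FoxA1 from 12 to 48 h (percentiles 70.5, 99.5 and 98.8), and 1000 at both 24 and 48 h with anti-FLAG. Another event inside the gene, at 47887690, had a score of 93 in the combined list and 77, 137 and 194 at 12, 24 and 48 h with anti-FoxA1, and anti-FLAG had none there. Upstream of the gene, combined FoxA1 events lay 1.39 kb away with a score of 75, 18.6 kb away with 356, 30.6 kb away with 185 and 34.0 kb away with 217. The last 2 lay inside Gm29938. All 6 were found in at least 1 list of the courses.

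**Figure D4:**
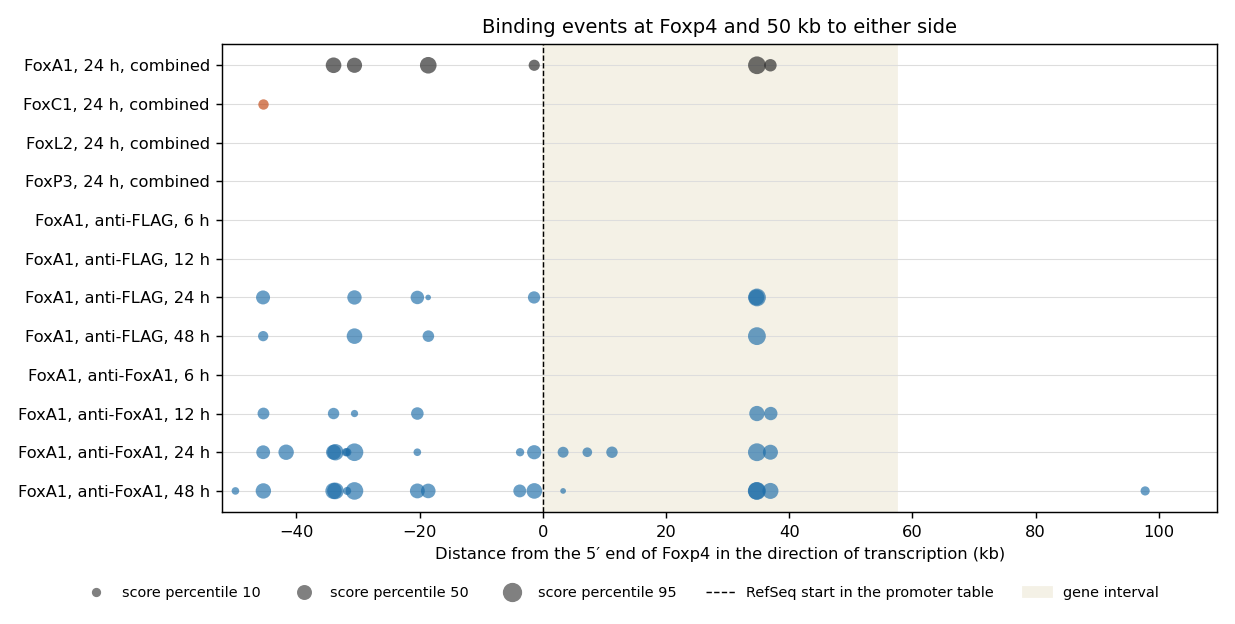
Events at Foxp4 by list, drawn as in the map of Foxp1. The horizontal axis is the distance from the 5′ end in kb, and point size is the percentile of the score in its list. FoxA1 events stand inside the gene 34.8 kb from the start and upstream of it, the FoxL2 and FoxP3 rows are empty, and only 1 event, in the anti-FoxA1 list at 48 h, lies beyond the 3′ end.

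None of the 7 Foxp4 sites of the combined lists held 2 factors (0%, 0–35.4), where 8.58% of all sites did. The FoxC1 event, at 47970005 inside Gm29938 and 45.4 kb upstream, had a score of 52 (percentile 28.0) and no partner in the combined lists. FoxA1 was nevertheless called near it in the time courses, at 47969970, 47970016 and 47969988 with anti-FoxA1 at 12, 24 and 48 h and at 47970038 and 47970017 with anti-FLAG at 24 and 48 h. With any of the 11 FoxA1 lists in place of the combined list, 1 of 1 FoxC1 events at Foxp4 and 2 of 2 at Foxp1 met FoxA1, compared with 66.9% of the whole FoxC1 list. The same count was 5 of 6 for FoxP3 at Foxp1 (52.3% of the list) and 8 of 18 for FoxL2 (26.0%).

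FoxA1 events at Foxp4 were first called at 12 h with anti-FoxA1 and at 24 h with anti-FLAG. At 0 and 6 h no list had an event in its window, as at nearly all genes: 0 to 0.626% of genes had any in those lists. With anti-FoxA1 the Foxp4 window had 6 events at 12 h (37.8% of genes had any) and 15 each at 24 and 48 h (74.3% and 77.4%). The anti-FLAG lists had none at 12 h, when 10.5% of genes had any, 7 at 24 h (52.8%) and 4 at 48 h (50.3%). Of 18 anti-FoxA1 places, 6 were first called at 12 h (33.3%, against 16.0% of all places), 9 at 24 h and 3 at 48 h, and all 6 early ones were called at 24 and 48 h. All 6 anti-FLAG places were first called at 24 h. The place 30.6 kb upstream, inside Gm29938, was at percentiles 8.99, 97.4 and 96.5 in the anti-FoxA1 lists of 12, 24 and 48 h (scores of 46, 660 and 609). With anti-FLAG it had 126 and 174 at 24 and 48 h.

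The antibodies differed in the number of FoxA1 events at both genes, as they did over the whole lists. At 24 h, 18 of 20 anti-FLAG events at Foxp1 (90.0%, 69.9–97.2) and 6 of 7 at Foxp4 (85.7%, 48.7–97.4) had an anti-FoxA1 event within 100 bp, compared with 86.0% of the list. In the other direction, 18 of 28 anti-FoxA1 events at Foxp1 (64.3%, 45.8–79.3) and 5 of 15 at Foxp4 (33.3%, 15.2–58.3) had an anti-FLAG event, compared with 40.5% of the list. At 48 h these were 18 of 38 at Foxp1 (47.4%, 32.5–62.7) and 5 of 15 at Foxp4, compared with 31.0%. The intervals of the genes overlap, which does not show that their shares are alike, and the difference was not tested. From 24 to 48 h, 22 of 28 anti-FoxA1 events at Foxp1 and 11 of 15 at Foxp4 were found again (72.0% of the list), and 13 of 20 and 5 of 7 with anti-FLAG (61.3%). The anti-FLAG events at 48 h were matched in 16 of 18 cases at Foxp1 and 4 of 4 at Foxp4 (90.2%). At 12 h, all 3 anti-FLAG events at Foxp1 were matched (90.3%), and 3 of 9 anti-FoxA1 events at Foxp1 and 0 of 6 at Foxp4 were (18.8%). From 12 to 24 h, 9 of 9 and 6 of 6 anti-FoxA1 events (89.2%) and 3 of 3 anti-FLAG events at Foxp1 (95.1%) were found again, and so was the 1 event of 6 h at 12 h (98.8%). The combined FoxA1 events met those of anti-FLAG at 24 h in 18 of 30 cases at Foxp1 (60.0%, 42.3–75.4) and 4 of 6 at Foxp4, compared with 33.0% of the list. They met those of anti-FoxA1 at 24 h in 17 of 30 and 5 of 6 cases (54.8%). Seen from the courses, 18 of 20 anti-FLAG events at Foxp1 and 5 of 7 at Foxp4 met the combined list (67.5%), as did 18 of 28 and 5 of 15 with anti-FoxA1 (52.5%). With 1 library for each time and antibody, these shares have no replicate error.

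**Figure D5:**
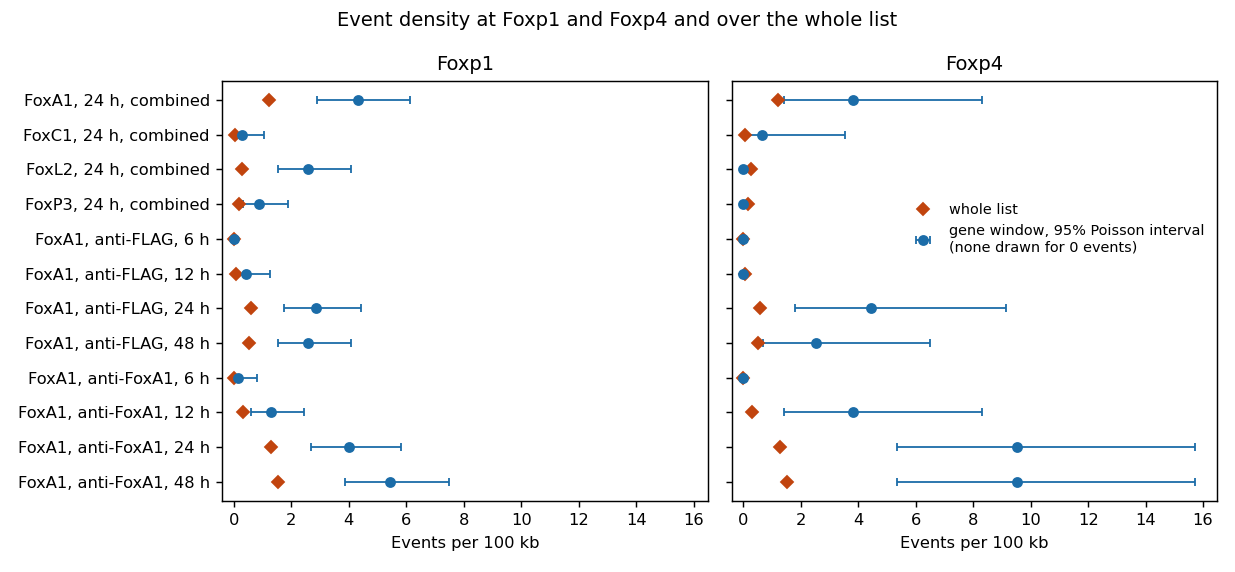
Events per 100 kb in the windows of Foxp1 (left) and Foxp4 (right) and over the whole list. Circles are the gene windows with 95% Poisson intervals and diamonds the whole list on chromosomes 1 to 19, X and Y, with 1 row per list. At Foxp4 the anti-FoxA1 lists at 24 and 48 h reach 9.52 per 100 kb, and at Foxp1 they have 4.01 and 5.45.

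Per length, the FoxA1 densities of the genes had overlapping intervals. Overlap does not show that the densities are alike, and their difference was not tested. The combined FoxA1 list had 3.81 per 100 kb at Foxp4 (1.40–8.29) and 4.30 at Foxp1. With anti-FoxA1 at 24 h the values were 9.52 (5.33–15.7) at Foxp4, percentile 99.0 of all protein-coding genes, and 4.01 (2.67–5.80) at Foxp1, percentile 84.4, and the intervals overlap. With anti-FLAG at 24 h they were 4.44 (1.79–9.16) and 2.87 (1.75–4.43). For FoxL2 and FoxP3, the window of Foxp4 is 4.43 times shorter than that of Foxp1. The rate of the whole list would give Foxp4 0.418 FoxL2 and 0.254 FoxP3 events, where 0 of either were called. That rate includes long stretches without genes, and whether the shorter window accounts for the counts of 0 was not tested. At Foxp1 the same rate gives 1.85 FoxL2 events, where 18 were called.

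The other genes of the subfamily and of FoxP partners were compared by the same windows, as lists chosen with earlier results of these data known. Of the 4 Foxp genes, 4 had FoxA1 events, 2 FoxC1, 2 FoxL2 and 1 FoxP3 events, and only Foxp1 had all 4. Over all protein-coding genes 74.2% had FoxA1, 7.70% had FoxC1, 32.3% had FoxL2 and 21.6% had FoxP3 events, and 3.51% had all 4. With 4 genes a count of 1 for FoxP3 is near its share. Foxp2, which is 541 kb long and acts in brain circuits for vocal learning, had 2 FoxA1 events and 1 FoxL2 event, compared with 30 and 18 at Foxp1. Foxp3, the gene of regulatory T cells, had 1 FoxA1 event. Of 12 corepressor genes, of the NuRD complex or CtBP, 12 had FoxA1 events, 4 FoxL2, 4 FoxP3 and 2 FoxC1 events, of which 4 of 12 for FoxL2 is close to the 32.3% of all genes and 12 of 12 for FoxA1 stands beside 74.2%. Mta2 was the only one with all 4 factors, 1 event each, and Chd4, the ATPase of NuRD, had 7 FoxA1, 3 FoxC1 and 1 FoxP3 events. Of 7 ES cell genes linked to the FOXP1 splice form or its splicing, 7 had FoxA1 and FoxL2 events, 5 FoxP3 and 3 FoxC1 events, beside 74.2%, 32.3%, 21.6% and 7.70% of all genes for FoxA1, FoxL2, FoxP3 and FoxC1. Gdf3 and Tdgf1, a ligand and a co-receptor of the Nodal pathway, and Nanog had all 4, as did 3.51% of all genes. Gdf3 and Nanog are close neighbours on chromosome 6. Tdgf1 had 8 FoxA1, 1 FoxC1, 1 FoxL2 and 2 FoxP3 events. The median number of FoxA1 events was 4.00 in the Foxp and corepressor lists and 6.00 in the ES cell list, and 2.00 over all protein-coding genes.

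The genes most like each member were those with the smallest Euclidean distance over the 11 lists with at least 20 events on chromosomes 1 to 19, X and Y, on log2 of the number of events plus 1. For Foxp1 they were Etl4 (2.18), Pde4d (2.33) and Exoc4 (2.40), genes of 900.3, 1302 and 725 kb, where the median gene was at 10.2. Etl4 had 37 FoxA1, 1 FoxC1, 8 FoxL2 and 7 FoxP3 events, so that FoxL2 was lower there than at Foxp1. For Foxp4 they were Cmtm7 (0.641), Smad7 (1.21) and Tspan14 (1.21), where the median gene was at 5.59. Cmtm7 had 7 FoxA1 events, 1 FoxC1 event and no FoxL2 or FoxP3 event. The measure uses numbers of events and makes no allowance for gene length.

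At Foxp1 the farthest event inside the downstream limit lay 48623 bp from the gene (FoxA1, combined, score 560) and the nearest one outside it 52707 bp (score 87). Upstream of Foxp1 the last event inside lay 37986 bp away (score 43) and the next 63938 bp (score 49). At Foxp4 the upstream limit fell between anti-FoxA1 events of 48 h at 49891 bp (score 50) and 50742 bp (score 45). On the other side of Foxp4 the only event, inside Mdfi, lay 40264 bp away (score 56), and the next 74741 bp (score 49).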

How the data were processed

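Genome-wide binding events of 4 Forkhead factors in mouse ES cells were taken as deposited, on mm10. The submitters' processing notes name BWA 0.7.17-r1188, Picard and SAMtools, and the file headers name ChExMix as the caller. The sources used here do not give its version, controls or thresholds. Each deposited event carries a score from the authors, per the file headers, and without read totals the depth is unknown.

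The members and gene lists were chosen with earlier results of these data known. Groups came from the titles. A combined list names a factor and no library, and was read as pooling that factor's 24 h libraries. Some items of the series are left out.

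Gene intervals and promoters came from RefSeq tables for GRCm38.p6. Windows were the gene and 50 kb to either side. Coincidence was 100 bp, and sites and places were events joined by gaps of at most 100 bp. Percentiles of scores used midranks. Rates for whole lists used chromosomes 1 to 19, X and Y up to the last gene or event. Wilson and Poisson intervals are at 95%. No test across samples was possible or made, since each list has 1 version. The genes named follow the design: sites of 2 or more factors, extreme scores, early places, events nearest the ends, genes in the windows, and the 3 most alike genes. Counting was tested on simulated data. Python 3.11.15, pandas 2.3.3 and SciPy 1.17.1 were used. Alternatives changed the window, the distance, the score minimum, the 0 h events and the FoxA1 list.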

Additional observations from a re-analysis of the deposited data

How the results depend on the processing

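Of 112 recomputed values of 20 results, 93 stayed within 1.5 times the count, or inside the interval of the share, and 19 moved. Some of the 93 were fixed in advance, since another FoxA1 list cannot change an event count of FoxC1, FoxL2 or FoxP3. The 93 therefore overstate how stable the results were. With only events at or above the median score, Foxp1 kept 18 of 30 FoxA1 and 3 of 6 FoxP3 events and 5 of 10 sites of 2 or more factors. Early anti-FoxA1 places then fell to 4 at Foxp1 and 2 at Foxp4, and the FoxC1 event at Foxp4 dropped out (0). Windows of 100 kb gave Foxp4 11 FoxA1, 2 FoxC1, 1 FoxL2 and 1 FoxP3 events and 2 sites of 2 or more factors. The gene interval alone gave Foxp4 2 FoxA1 and 0 FoxC1 events, and a window of 20 kb 0 FoxC1 events. When the 24 h list of anti-FoxA1 stood for FoxA1, Foxp4 had 15 FoxA1 events and 1 site of 2 factors, and with the anti-FLAG list 1 such site. Coincidence at the same base left 3 shared sites at Foxp1 and 0 of all 4 factors, while 50 and 200 bp each left 9 and 1. Leaving out events near those of 0 h changed none of the 8 event counts of the combined lists. It could change none of them, because neither 0 h list had an event in either window. No replicate could be left out: a combined list cannot be split, and a course list is 1 library. No paired analysis was possible because the results come from no test and the lists carry no replicate numbers. The depth behind the lists is unknown, so absence from a list does not show absence of binding.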
